A study of Homo sapiens with 44 samples.

Results

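The genes described here encode the 3 nuclear RNA polymerases of human cells and the factors that place polymerases I and III on their promoters. They were chosen by name: every gene row whose symbol starts with POLR1, POLR2 or POLR3, plus CD3EAP, ZNRD1 and TWISTNB, which are older symbols of polymerase I subunits, and the factors RRN3, UBTF, TAF1A, TAF1B, TAF1C, TAF1D, BRF1, BRF2 and BDP1. This gave 43 of the 23367 gene rows, and all 43 passed the filter on low counts, which left 14534 genes to test. By role they were 6 polymerase I subunits, 6 polymerase I factors, 2 subunits shared by polymerases I and III, 11 polymerase II subunits, 5 subunits shared by all 3 enzymes, 10 polymerase III subunits and 3 polymerase III factors.

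The cells were of the IMR5/75 line, which derives from a human neuroblastoma and has extra copies of MYCN, and all of them carried a short hairpin RNA against MYCN that tetracycline switches on. An 18 h thymidine block held all cells at the border of G1 and S phase, and RNA was taken at 0, 3, 6, 8, 10, 12, 14, 16, 18, 20 and 22 h from washout. They were kept with tetracycline (Tet plus, hairpin induced) or without it (Tet minus), with 2 libraries, described as biological replicates, at every time in each arm, 44 libraries in 22 groups. No library had tetracycline with a control hairpin or without a hairpin, so the drug itself, off-target action of the hairpin and loss of MYCN cannot be told apart. Gene counts ran from 10906524 to 25313546 per library.

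Polymerase I makes the large ribosomal RNA precursor in the nucleolus, polymerase II makes messenger RNA, and polymerase III makes transfer RNA, 5S ribosomal RNA and other short RNAs. Each enzyme has its own pair of large catalytic subunits, the 3 enzymes share a set of small subunits, and I and III share a further pair. MYC family proteins bind the DNA hexamer CACGTG, the E-box, and are known to raise ribosome and transfer RNA production in growing cells. Values below are CPM, a gene's counts relative to the TMM-scaled total of its library, which compare a gene between libraries but not genes of different length. Differences are log2 fold changes of Tet plus against Tet minus with their standard error (SE), and a gene was called when its adjusted p was below 0.05 over all genes tested by edgeR's quasi-likelihood test.

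The sequences at the start sites of these genes came from RefSeq (build GRCh38.p14), as windows from 250 bases before to 50 bases after each start, and 32 of the 43 genes matched. The hexamer CACGTG, which reads the same on both strands, was present in the windows of 4 genes, CD3EAP, POLR3A, POLR3C and POLR3E. That was 12.5% of the matched genes, beside 8.77% of all 27305 genes with a window. Positions are counted from the start site, and the 30 bases around each match are shown because these 4 genes share the hexamer and have unlike arm differences, a contrast that was not tested. Capitals mark the hexamer.
CD3EAP, chr19:45406620-45406649, plus strand, hexamer at -12: cccctttggatcCACGTGgtctgcaacctg
POLR3E, chr16:22297396-22297425, plus strand, hexamer at -1: cccgctccccccCACGTGtccgccggagtt
POLR3A, chr10:78029533-78029562, minus strand, hexamer at -35: agaggaagcggaCACGTGggacactctacg
POLR3C, chr1:145823992-145824021, plus strand, hexamer at -196: gcccgcgtcggtCACGTGagttggccaggc
At 0 to 14 h the first gene fell by 1.03 and the second by 0.40 on the log2 scale. POLR3A had a difference of -0.16 that was not called, and POLR3C fell by 0.09 with an adjusted p of 0.049 (edgeR).

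A related hexamer, CACGCG on either strand (CGCGTG when read on the other), was found in 12 matched genes, 37.5% against 13.5% of all genes with a window. These 12 were POLR1A, POLR1C, POLR1D, POLR2B, POLR2L, POLR3B, POLR3C, POLR3E, POLR3K, RRN3, TAF1C and UBTF. The POLR3E window also held the internal promoter motif of transfer RNA genes, the B box, at -209, and TAF1C held it at -174 on the other strand. Whether either match is part of a transfer RNA gene lying in the window, and not of the named gene's promoter, was not examined. The B box was searched for after these sequences had been seen, on both strands, and it was present in 65 of the 35116 windows (0.185%). The stretch before the POLR3E start is shown because both kinds of motif sit in it. Capitals mark the B box and the pair of CGCGTG matches. The last sequence is the stretch at the start of POLR3GL, the polymerase III subunit gene that rose, in which neither hexamer was found.
POLR3E, chr16:22297159-22297374, plus strand, from -250 to -35: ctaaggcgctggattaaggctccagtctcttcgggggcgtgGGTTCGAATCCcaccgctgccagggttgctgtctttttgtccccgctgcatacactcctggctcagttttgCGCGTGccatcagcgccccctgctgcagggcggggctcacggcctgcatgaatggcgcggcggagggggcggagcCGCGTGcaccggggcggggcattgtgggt
POLR3GL, chr1:145964583-145964702, plus strand, from -107 to 13: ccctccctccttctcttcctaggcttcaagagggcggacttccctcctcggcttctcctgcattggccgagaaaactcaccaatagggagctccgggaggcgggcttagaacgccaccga

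MYCN, the target of the hairpin, was measured first. At 0 to 14 h it had 970 to 1479 CPM in the 14 Tet minus libraries (median 1228) and 938 to 1213 CPM in the 14 Tet plus libraries (median 1002). The ranges overlapped, and within each pair of same-numbered libraries Tet plus was the lower in 14 of 14. MYCN RNA fell by 17.3% (log2 fold change -0.27, SE 0.0460, adjusted p = 2.71e-05, edgeR). At 16 to 22 h it was lower by a similar step (log2 fold change -0.26, SE 0.0608, adjusted p = 0.000787, edgeR).

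Over the 7 times from 0 to 14 h, 27 of the 43 genes fell and 1, POLR3GL, rose, while 21.3% of all genes tested fell and 20.1% rose. The median log2 fold change of the 43 was -0.24, beside 0.01 over all genes, and 39 of the 43 had a negative value. Of the polymerase I subunits 5 of 6 fell, of its factors 4 of 6, of the subunits shared by I and III 2 of 2, of those shared by all 3 enzymes 4 of 5, of the polymerase II subunits 3 of 11, of the polymerase III subunits 8 of 10 and of its factors 1 of 3. Together the 43 genes took 0.324% to 0.356% of gene counts in the Tet minus libraries and 0.297% to 0.322% in the Tet plus libraries, ranges that did not overlap. Scaled to the ERCC spike-in transcripts in place of gene counts, none of the 43 was called, and 4 genes of all tested were lower and 44 higher. ERCC transcripts took 0.806% to 4.25% of counts in these Tet minus libraries and 0.736% to 5.85% in Tet plus. Replicates also differed, with 1.84% and 5.85% in Tet plus at 10 h. Few calls on this scale therefore do not show that levels were equal. In counts summed over the 7 times, 2 libraries against 2, edgeR called 0 genes of all tested without the pairing of replicate numbers, and 33 of the 43 as lower with it. Over all genes the paired fit called 4221 lower and 4371 higher. The paired fit of summed counts was chosen after seeing the data.

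**Figure D1:**
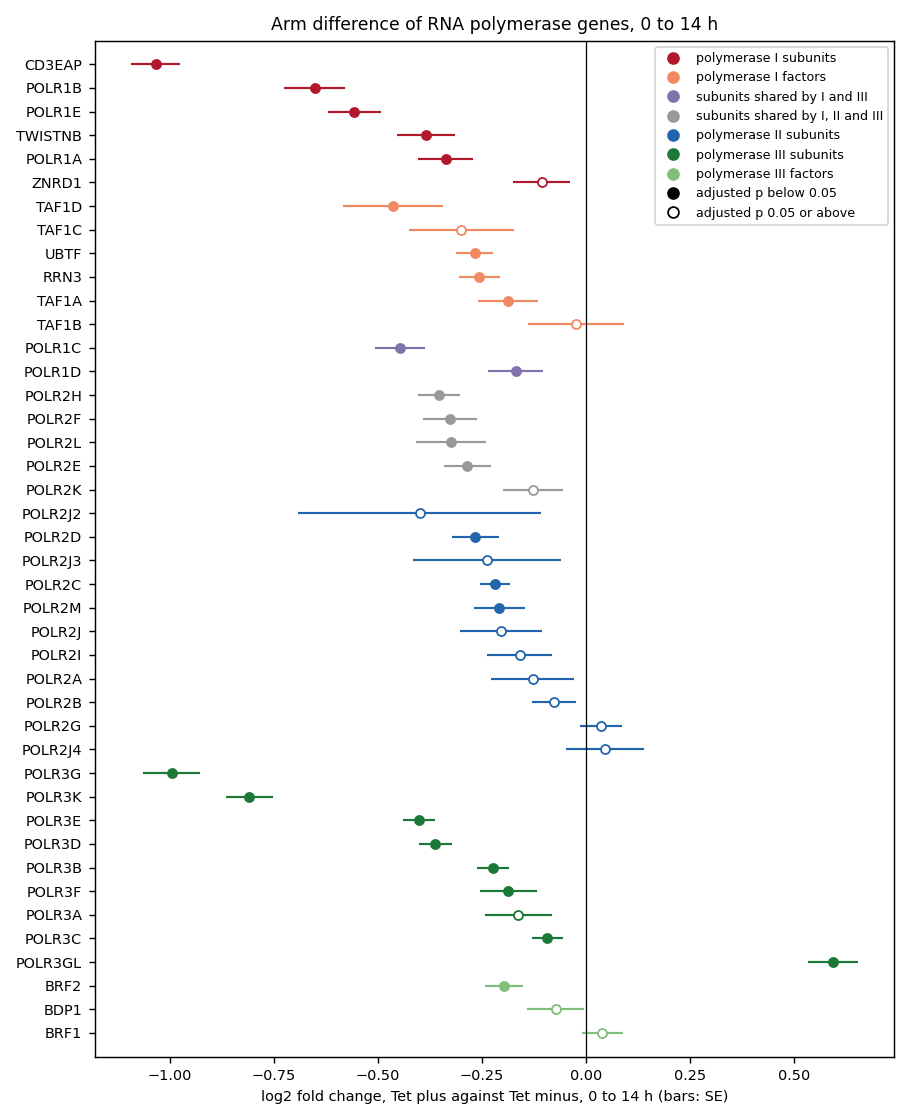
Log2 fold change of Tet plus against Tet minus over 0 to 14 h for 42 of the 43 genes, ordered by role, with bars for SE and filled points for adjusted p below 0.05. CD3EAP, POLR3G and POLR3K lie farthest to the left, between -1.03 and -0.81, and POLR3GL alone lies to the right of 0 with a filled point, at 0.59.

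Among the polymerase I subunits, CD3EAP changed most. Its product, also known as PAF49 or POLR1G, is a polymerase I subunit that pairs with that of POLR1E. CD3EAP had 49.1 to 70.9 CPM in Tet minus libraries (median 59.4) and 22.1 to 33.4 CPM in Tet plus libraries (median 28.9). Every Tet plus library lay below every Tet minus library, a separation that 1.09% of all genes showed in this direction. CD3EAP fell by 51.2% (log2 fold change -1.03, SE 0.0585, adjusted p = 3.16e-13, edgeR), and it was called lower at each of the 7 times taken singly. Its exons overlap those of ERCC1, a DNA repair gene on the opposite strand, over 48.4% of their length, and the strand setting of the counting is not given in the sources used here. For ERCC1 the log2 fold change came to -0.05 (adjusted p = 0.596, edgeR).

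POLR1E, the partner of CD3EAP known as PAF53, showed the same separation of all libraries. It had 91.0 to 131 CPM in Tet minus (median 112) and 57.3 to 90.2 CPM in Tet plus (median 73.8). It fell by 32.0% (log2 fold change -0.56, SE 0.0633, adjusted p = 8.60e-08, edgeR). POLR1B, the second largest subunit and part of the catalytic centre, went from 72.0 to 162 CPM (median 123) in Tet minus to 54.7 to 101 CPM (median 78.2) in Tet plus. These ranges overlapped across times, and the mean was lowest at 3 h in both arms (88.1 CPM in Tet minus, 60.2 CPM in Tet plus). Change of POLR1B over time was not called in Tet minus or in Tet plus up to 14 h (adjusted p = 0.158 and 0.165, edgeR). The arms did not overlap at any of the 7 times, Tet plus being the lower. POLR1B fell by 36.3% (log2 fold change -0.65, SE 0.0736, adjusted p = 7.53e-08, edgeR).

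The other polymerase I subunits moved less. POLR1A, the largest subunit, had 96.2 to 166 CPM (median 128) in Tet minus and 79.0 to 121 CPM (median 101) in Tet plus, and was lower in 14 of 14 same-numbered pairs (log2 fold change -0.34, SE 0.0665, adjusted p = 0.000199, edgeR). TWISTNB, the stalk subunit that faces the initiation factor RRN3, fell by 0.38 on the log2 scale (SE 0.0697, adjusted p = 7.49e-05, edgeR). ZNRD1, the small subunit that serves RNA cleavage, had a log2 fold change of -0.11 and was not called (interval -0.25 to 0.03, adjusted p = 0.226, edgeR).

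The polymerase I factors are UBTF, which coats active ribosomal DNA, RRN3, which readies the polymerase for initiation, and the TAF1 proteins, which with TBP form the promoter selectivity factor SL1. UBTF had 277 to 414 CPM (median 355) in Tet minus and 251 to 343 CPM (median 293) in Tet plus. It was lower in 14 of 14 pairs and fell by 16.9% (log2 fold change -0.27, SE 0.0449, adjusted p = 2.73e-05, edgeR). RRN3 had 97.8 to 155 CPM (median 122) against 87.1 to 127 CPM (median 105) and fell by 16.3% (log2 fold change -0.26, SE 0.0497, adjusted p = 0.000160, edgeR). RRN3 has near copies, the pseudogenes RRN3P1, RRN3P2 and RRN3P3, with which it may share reads.

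TAF1D fell by 0.46 on the log2 scale but with a wide spread, from 26.5 to 53.9 CPM in Tet minus and from 16.3 to 39.8 CPM in Tet plus (SE 0.120, adjusted p = 0.00282, edgeR). TAF1A fell by 0.19 (SE 0.0727, adjusted p = 0.0407, edgeR), and this call was lost in 15 of the 28 fits that left out a single library. TAF1C had a log2 fold change of -0.30 (adjusted p = 0.0579, edgeR, or 0.0229 with replicate number as a block) and was called in 8 of the 28 fits that left out a library, and TAF1B one of -0.02 (interval -0.26 to 0.21). Whether the TAF1 genes differed from one another was not tested.

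POLR1C and POLR1D encode the assembly platform common to polymerases I and III, and both fell. POLR1C had 51.6 to 66.5 CPM (median 59.7) in Tet minus and 37.0 to 53.2 CPM (median 43.1) in Tet plus, with both Tet plus libraries below both Tet minus libraries at each of the 7 times (log2 fold change -0.45, SE 0.0599, adjusted p = 1.13e-06, edgeR). POLR1D had 16.6 to 29.3 CPM (median 23.9) against 17.0 to 23.6 CPM (median 19.6), ranges that overlapped, and fell by 0.17 on the log2 scale (SE 0.0654, adjusted p = 0.0393, edgeR). The POLR1D call was lost in 15 of 28 fits that left out a single library.

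Of the small subunits common to all 3 enzymes, POLR2H, POLR2F, POLR2L and POLR2E fell and POLR2K was not called. POLR2H had 63.8 to 84.9 CPM (median 74.9) in Tet minus and 50.8 to 71.3 CPM (median 57.6) in Tet plus, and was lower in 14 of 14 pairs (log2 fold change -0.35, SE 0.0505, adjusted p = 3.03e-06, edgeR). POLR2E had 84.5 to 133 CPM (median 107) against 68.9 to 114 CPM (median 87.0), POLR2F 53.9 to 73.8 CPM (median 61.1) against 35.7 to 58.5 CPM (median 49.2), and POLR2L 49.0 to 94.5 CPM (median 70.0) against 42.7 to 70.9 CPM (median 55.7). The log2 fold changes of these 3 genes lay between -0.33 and -0.28, with SE of 0.0563 to 0.0846. POLR2K had a log2 fold change of -0.13 (interval -0.28 to 0.02, adjusted p = 0.168, edgeR), which became a call without the first Tet minus library at 6 h (-0.17, adjusted p = 0.0470).

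Of the subunits found in polymerase II alone, 3 of 11 were called, or 3 of 8 without the copies POLR2J2, POLR2J3 and POLR2J4, and whether the polymerases differed was not tested. POLR2A, the largest subunit, which carries the C-terminal repeat domain, had 132 to 236 CPM (median 176) in Tet minus and 132 to 282 CPM (median 148) in Tet plus. The log2 fold change was -0.13 and was not called (SE 0.0992, interval -0.33 to 0.08, adjusted p = 0.317, edgeR). The highest POLR2A value, 282 CPM, came from the second Tet plus library at 6 h, and without that library POLR2A was called lower (-0.22, adjusted p = 0.0443). POLR2B, the second largest subunit, had 328 to 605 CPM (median 430) against 325 to 519 CPM (median 404) and a log2 fold change of -0.08 (interval -0.19 to 0.03, adjusted p = 0.263, edgeR).

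POLR2C, POLR2D and POLR2M were the 3 that fell. POLR2C, of the core that corresponds to POLR1C, had 108 to 142 CPM (median 121) in Tet minus and 86.8 to 115 CPM (median 106) in Tet plus and was lower in 14 of 14 pairs (log2 fold change -0.22, SE 0.0357, adjusted p = 1.93e-05, edgeR). POLR2D, one partner of the stalk, fell by 0.27 on the log2 scale (SE 0.0567, adjusted p = 0.000457, edgeR), whereas POLR2G, the other partner, had a log2 fold change of 0.04 (interval -0.07 to 0.14). POLR2M, whose product holds polymerase II back from initiation, fell by 0.21 (SE 0.0613, adjusted p = 0.00766, edgeR). POLR2I and POLR2J were not called but became calls with replicate number as a block (log2 fold changes -0.16 and -0.21, adjusted p = 0.0349 and 0.0272, edgeR), and in 4 and 3 of the 28 fits that left out a single library. POLR2I shares 39.5% of its exon length with TBCB on the opposite strand. POLR2J2, POLR2J3 and POLR2J4 are near copies of POLR2J whose reads could be split among them. POLR2J2 had at most 15 counts in a library, and none of these 3 copies was called.

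Polymerase III held both the steepest falls after CD3EAP and the only rise. POLR3G and POLR3GL are paralogs that occupy the same place in the enzyme, so that a polymerase III molecule contains one or the other. POLR3G is known as the form of undifferentiated and dividing cells, and POLR3GL as the one found widely in differentiated tissue. POLR3G had 12.0 to 19.6 CPM (median 16.8) in the Tet minus libraries and 6.55 to 10.4 CPM (median 8.06) in the Tet plus libraries, with no overlap. It fell by 49.8% (log2 fold change -0.995, SE 0.0683, adjusted p = 1.10e-11, edgeR) and was called at each of the 7 times.

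POLR3GL went the other way, from 18.3 to 26.5 CPM (median 23.4) in Tet minus to 30.3 to 38.9 CPM (median 35.0) in Tet plus. Again the 14 libraries of each arm did not overlap, a separation that 0.661% of all genes showed in this direction. POLR3GL rose by 51.0% (log2 fold change 0.59, SE 0.0598, adjusted p = 1.09e-08, edgeR). The ratio of POLR3G to POLR3GL in CPM was 0.525 to 0.969 (median 0.718) in Tet minus libraries and 0.177 to 0.310 (median 0.228) in Tet plus libraries. Per kilobase of annotated exon, POLR3G had a median of 4.73 CPM in Tet minus and 2.27 CPM in Tet plus, and POLR3GL 20.1 and 30.1 CPM, so that on this scale POLR3GL was the higher of the pair in both arms.

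POLR3K encodes the small subunit that cleaves RNA and helps polymerase III terminate. It had 16.1 to 21.9 CPM (median 19.4) in Tet minus and 9.07 to 13.3 CPM (median 10.3) in Tet plus, also without overlap. It fell by 42.9% (log2 fold change -0.81, SE 0.0564, adjusted p = 1.44e-11, edgeR) and was called at each of the 7 times. CD3EAP, POLR3G and POLR3K were the only 3 of the 43 genes called at every one of the 7 times. The share of all genes called at all 7 times was not counted.

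**Figure D2:**
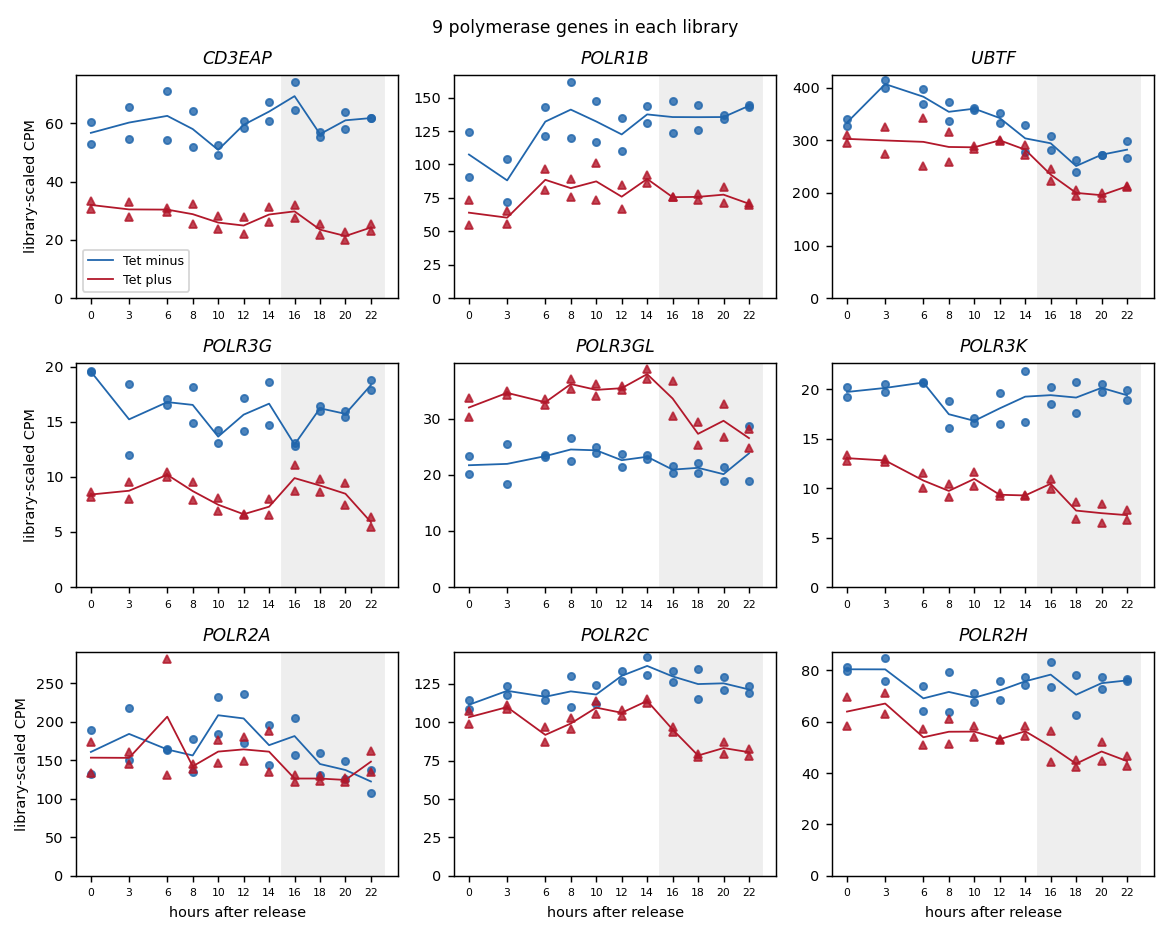
CPM of 9 genes by hours after thymidine release, each point 1 library, circles and blue lines for Tet minus, triangles and red lines for Tet plus, with lines through the mean of 2 libraries. Grey shading marks 16 to 22 h, where the arms also differ in title form and lane numbers. The arms of CD3EAP, POLR3G, POLR3K and POLR3GL stay apart from 0 h to 14 h, and those of POLR2A mix.

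POLR3D and POLR3E form the pair of subunits that assists initiation and termination. POLR3E had 67.1 to 91.0 CPM (median 78.6) in Tet minus and 47.9 to 69.1 CPM (median 61.0) in Tet plus (log2 fold change -0.40, SE 0.0387, adjusted p = 5.21e-09, edgeR). POLR3D had 99.4 to 133 CPM (median 121) against 80.1 to 108 CPM (median 93.6) (log2 fold change -0.36, SE 0.0390, adjusted p = 3.50e-08, edgeR). In both genes the Tet plus libraries lay below the Tet minus libraries at each of the 7 times.

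In all, 10 of the 43 genes were lower at every one of the 7 times with both libraries of each arm apart, against 4.12% of all genes, and POLR3GL was higher in this way, as were 3.18% of all genes. They included CD3EAP, POLR1B, POLR1C, POLR1E, POLR2H, POLR3D, POLR3E, POLR3G and POLR3K.

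Of the catalytic subunits of polymerase III, POLR3B was called lower in Tet plus than in Tet minus at 0 to 14 h and POLR3A was not called. POLR3A, the largest, had 81.0 to 131 CPM (median 112) in Tet minus and 80.0 to 135 CPM (median 95.2) in Tet plus (log2 fold change -0.16, SE 0.0801, interval -0.33 to 0.00, adjusted p = 0.108, edgeR). It was called without the first Tet minus library at 3 h (-0.21, adjusted p = 0.0314) or the second Tet plus library at 0 h (-0.22, adjusted p = 0.0208). POLR3B, the second largest, fell by 0.22 on the log2 scale and was lower in 14 of 14 pairs (SE 0.0384, adjusted p = 3.94e-05, edgeR). POLR3C and POLR3F, which form the initiation module together with POLR3G or POLR3GL, fell by 0.09 and 0.19, and these calls were lost in 21 and 8 of the 28 fits that left out a single library. Of the factors in TFIIIB, which brings polymerase III to its genes, BRF2, the form used at U6-type promoters, fell by 0.20 (SE 0.0458, adjusted p = 0.00107, edgeR). BRF1, the form used at transfer RNA and 5S genes, had a log2 fold change of 0.04 (interval -0.06 to 0.14) and BDP1 one of -0.07 (interval -0.21 to 0.07), and neither was called.

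At single times from 0 to 14 h, the number of the 43 genes called was 4, 6, 11, 10, 4, 8 and 6 at 0, 3, 6, 8, 10, 12 and 14 h, while 1.57%, 2.72%, 7.09%, 3.43%, 3.40%, 4.19% and 5.37% of all genes were called. Leaving out a library of the time in question gave 1 to 2 calls at 0 h, 1 to 4 at 3 h, 2 to 9 at 6 h, 2 to 8 at 8 h, 1 to 2 at 10 h, 3 to 4 at 12 h and 3 to 6 at 14 h. Summed over the 7 times the fit of all libraries made 49 calls, or 87 with replicate number as a block, same-numbered libraries of the arms having varied together. Over all genes, 2.45% of such tests were called lower and 1.52% higher in the fit without the block. The all-gene share with the block was not counted at single times. In the 0 to 14 h average the block raised all-gene calls from 3095 lower and 2924 higher to 3726 and 3856. Without the block, polymerase III genes gave 26 calls lower and 4 higher of 91 tests, polymerase I genes 14 lower of 84, shared subunits 4 lower of 49 and polymerase II genes 1 lower of 77. At 0 h, with cells still held by thymidine, the 4 were CD3EAP, POLR1B, POLR3G and POLR3K, and the count was 1 or 2 whichever library of that time was left out. At that time POLR3G had 8.18 and 8.62 CPM in the Tet plus libraries and 19.6 and 19.5 CPM in the Tet minus libraries. CD3EAP had 30.6 and 33.4 CPM against 52.8 and 60.6 CPM, so both genes stood apart before release.

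The median log2 fold change at single times ran from -0.41 to -0.23 for polymerase I genes, from -0.30 to -0.09 for polymerase II genes, from -0.32 to -0.14 for polymerase III genes and from -0.54 to -0.22 for shared subunits. Whether the arm difference varied over the 7 times was tested directly. None of the 43 genes was called (0 at an unadjusted p below 0.05 with edgeR, and 0 called with DESeq2), as against 0.0138% of all genes. In the colour map of arm differences the polymerase II rows carry 1 dot up to 14 h.

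**Figure D3:**
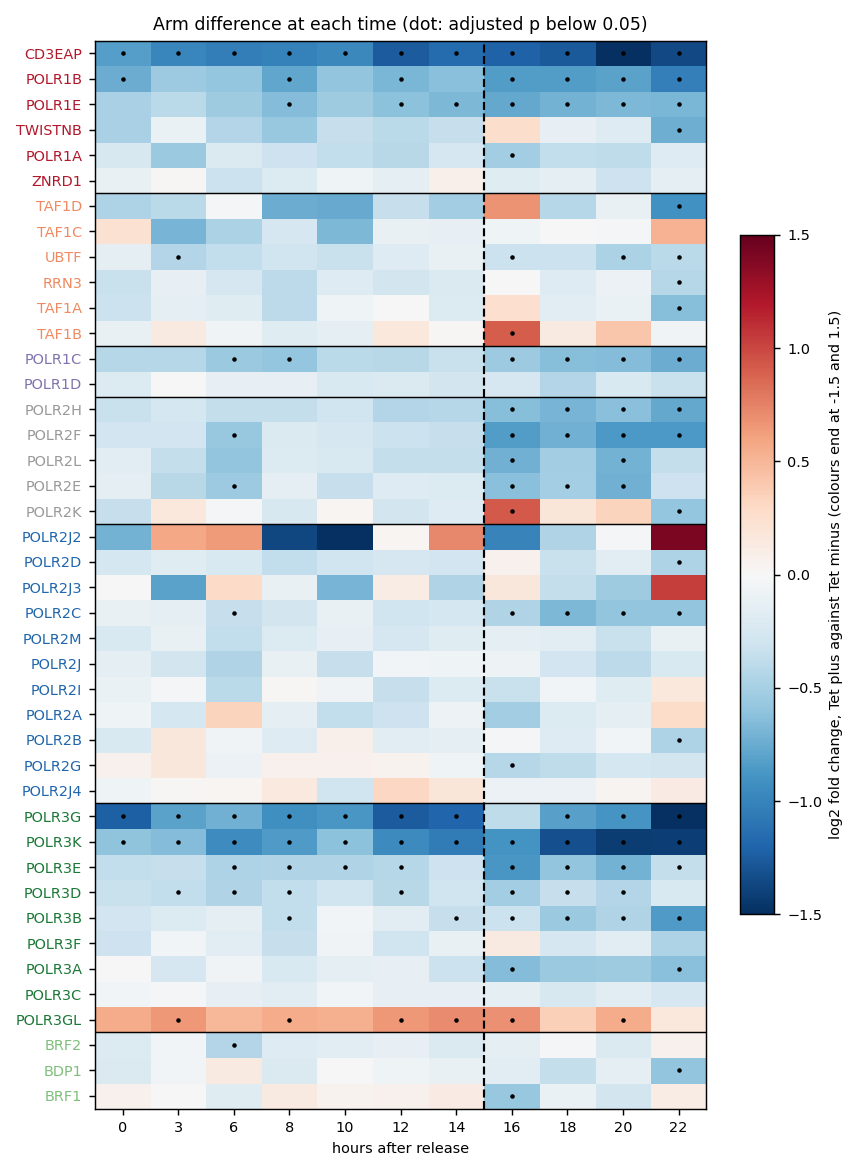
Colour map of the log2 fold change of Tet plus against Tet minus for 42 of the 43 genes (rows, grouped by role) at the 11 times (columns), blue for lower and red for higher in Tet plus, with a dot where the adjusted p is below 0.05 and a dashed line before 16 h. CD3EAP, POLR3G and POLR3K carry dots at all 7 times to the left of the dashed line, and POLR3GL is the only row that is red at all 7.

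Change over time was tested within each arm. In Tet minus cells 6 of the 43 changed over the 11 times, against 19.7% of all genes, namely UBTF, POLR3B, POLR2B, TAF1A, POLR3E and BRF1. UBTF was highest at 3 h, with a mean of 407 CPM, and lowest at 18 h, with 251 CPM (adjusted p = 0.000992, edgeR). TAF1A was lowest at 3 h, with 17.2 CPM, and highest at 8 h, with 37.0 CPM (adjusted p = 0.00486, edgeR), a call that was lost without the second Tet minus library at 3 h (adjusted p = 0.0597). The BRF1 call was lost in 15 of the 22 fits that left out a Tet minus library (adjusted p up to 0.161, edgeR). With replicate number as a block, 11 genes were called in place of 6, and the share of all genes with the block was not counted.

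In Tet plus cells from 0 to 14 h POLR3B and TAF1A changed over time, 2 of 43, against 10.4% of all genes. With the block 6 were called, and the share of all genes with it was not counted. Lane numbers change along the course, and within a set of libraries from the same lanes 0 of the 43 changed in Tet minus cells between 0 and 6 h, 8 and 12 h or 16 and 22 h (2.35%, 0.833% and 1.64% of all genes, edgeR; DESeq2 also called 0). In Tet plus cells POLR3B rose by 0.46 on the log2 scale from 0 to 6 h (SE 0.102, with an adjusted p of 0.0117, edgeR), where 2.50% of all genes changed. The call was lost without the first Tet plus library at 0 h or at 6 h. With the block 4 of the 43 were called, and the share of all genes with it was not counted. None changed from 8 to 12 h (0.220% of all genes).

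From 16 h on the arms differ in the form of their titles and in lane numbers, called batch below. Some late Tet plus titles repeat both the barcode bases and the lane number of an earlier Tet minus library, so those libraries did not share a lane of the same run. In the second late Tet plus replicates the number in the title is not the hour, which was taken from the description. The labels name no sequencing run or other reason, so what else differed is not known, and arm and batch cannot be told apart. ERCC transcripts took 0.0543% to 0.376% of counts in those 8 Tet plus libraries and 1.13% to 3.43% in the 8 Tet minus libraries of these times. Scaled to gene counts, 26 of the 43 genes were lower and 1, POLR3GL, was higher, against 26.8% and 26.3% of all genes. With replicate number as a block 3 were higher, the others being TAF1B (0.37 on the log2 scale, adjusted p = 0.00900, against 0.35 and 0.0577 without the block, edgeR) and POLR2K (0.22, adjusted p = 0.0418, against 0.21 and 0.0621). Of all genes, 4661 were higher with the block and 3821 without it. Scaled to ERCC counts, all 43 were higher, as were 14510 of the 14534 genes, the median of all genes being 4.40 on the log2 scale. The median of the 43 was then 4.14, and 36 of them stayed below the median of all genes. The values that follow are scaled to gene counts and are relative to the other genes.

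**Figure D4:**
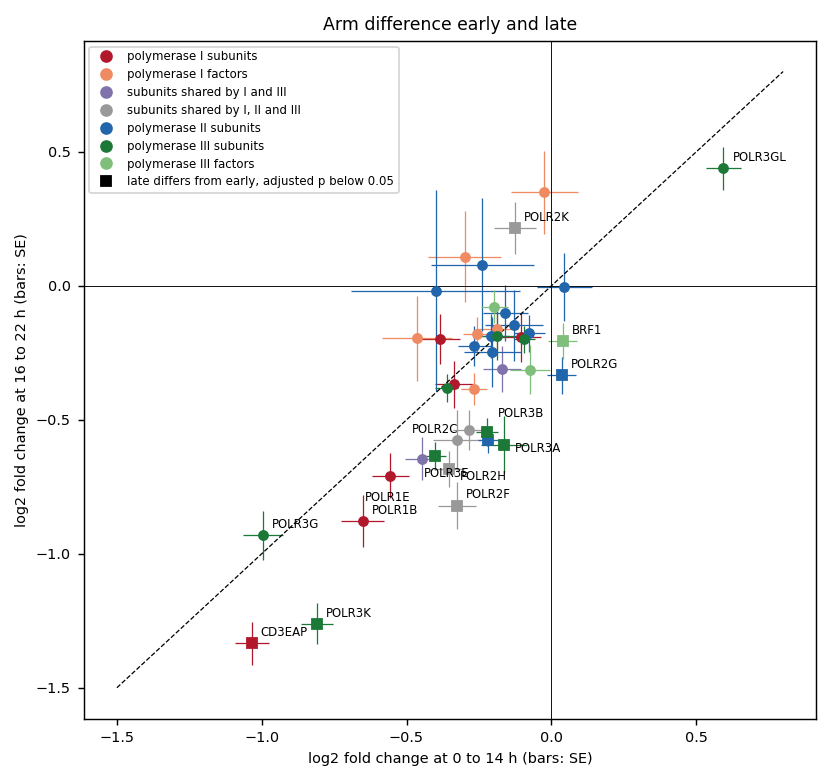
Log2 fold change of Tet plus against Tet minus at 0 to 14 h (horizontal) and at 16 to 22 h (vertical) for 42 of the 43 genes, coloured by role, with bars for SE, a dashed line of equal values and squares where the difference between both periods had an adjusted p below 0.05. Squares below the line include CD3EAP, POLR3K and POLR2F, and POLR2K is the square above the line. On the vertical axis the arms also differ in title form and lane numbers.

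In both periods 21 of the 43 genes were called lower, as were 15.6% of all genes. CD3EAP had 55.4 to 74.0 CPM in the 8 late Tet minus libraries (median 61.8) and 19.8 to 31.9 CPM in the 8 late Tet plus libraries (median 24.2), a fall of 60.4% (log2 fold change -1.33, SE 0.0789, adjusted p = 1.96e-13, edgeR). POLR3K had 17.6 to 20.7 CPM (median 19.8) against 6.51 to 11.0 CPM (median 8.11), a fall of 58.3% (log2 fold change -1.26, SE 0.0771, adjusted p = 3.41e-13, edgeR). POLR3G had 12.8 to 18.8 CPM (median 16.0) against 5.42 to 11.1 CPM (median 8.68), and its log2 fold change was -0.93 (SE 0.0922, adjusted p = 3.36e-09, edgeR). In 18 of the 43 genes all 8 Tet plus libraries lay below all 8 Tet minus libraries, as in 9.52% of all genes, and in 0 of the 43 they all lay above (6.3% of all genes).

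The arm difference itself was compared between the periods, and 10 of the 43 genes had a lower and 1 a higher difference at 16 to 22 h, against 12.3% and 8.24% of all genes. POLR2F had 53.9 to 73.8 CPM in early and 49.8 to 77.3 CPM in late Tet minus libraries, and 35.7 to 58.5 CPM in early and 31.9 to 45.2 CPM in late Tet plus libraries. Its difference moved by -0.49 (SE 0.110, adjusted p = 0.00172, edgeR). POLR3A, not called before, had 103 to 128 CPM (median 115) in late Tet minus and 66.8 to 95.7 CPM (median 75.3) in late Tet plus libraries (log2 fold change -0.59, SE 0.107, adjusted p = 4.05e-05, edgeR). POLR2G, at 0.04 before, was at -0.33 (SE 0.0679, adjusted p = 0.000174, edgeR). For these 3 genes the larger difference lay in the period in which arm and batch coincide.

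Within the late Tet plus libraries, 5 genes were lower and 1 higher at 22 h than at 16 h (4.65% and 2.59% of all genes). POLR2K fell from 110 and 125 CPM to 61.2 and 49.2 CPM (log2 fold change -1.09, SE 0.195, adjusted p = 0.00121, edgeR). TAF1D fell by 1.18, TWISTNB by 0.62, POLR3G by 0.75 and POLR3K by 0.52 on the log2 scale, and BRF1 rose by 0.46. This count of 6 became 3 without the first library at 16 h, 3 without the first at 22 h, 1 without the second at 16 h and 0 without the second at 22 h.

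Genes that work with these enzymes were counted from lists written from general knowledge, with earlier results of these data known. Of 17 genes listed as partners of polymerase I and the nucleolus, 12 were lower and 1 higher at 0 to 14 h (median log2 fold change -0.38). The lower genes included MYBBP1A, a nucleolar protein (-0.92, SE 0.0489), DDX21, an RNA helicase (-0.84, SE 0.0706), and NOLC1, a nucleolar phosphoprotein (-0.75, SE 0.0477). This list also held POLRMT, the mitochondrial RNA polymerase, which is not such a partner. POLRMT was among the lower genes (-0.38, SE 0.0632), and its value was the median of the list. Of 39 general factors of polymerase II, 15 were lower and 1 higher (median -0.13), with SSRP1, of the histone chaperone FACT, at -0.23 (SE 0.0329). Of 18 factors of polymerase III, 12 were lower and 1 higher (median -0.20), with GTF3A, the 5S gene factor, at -0.54 (SE 0.0728) and SNAPC1, which binds U6-type promoters, at -0.57 (SE 0.0900). Of 20 genes for polymerase assembly and import, 11 were lower and 0 higher (median -0.19), with PFDN2, a prefoldin subunit, at -0.46 (SE 0.0592) and RUVBL1, an ATPase of the assembly chaperone, at -0.45 (SE 0.0533). Of 4 polymerase III transcripts with enough counts, BCYRN1 was lower (-0.84, SE 0.110, adjusted p = 7.60e-07, edgeR) and 3 were not called. At 16 to 22 h, scaled to gene counts, BCYRN1 was again lower (-0.86), and RMRP (0.75), RPPH1 (0.72) and VTRNA1-1 (1.63) were higher, with arm and batch not to be told apart. The 0 to 14 h background of 21.3% lower and 20.1% higher applies to each of these lists.

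Markers of cell identity and phase were also read in each arm. Of 9 noradrenergic neuroblastoma markers tested, 5 were higher and 0 lower at 0 to 14 h, and the 10 listed genes summed to 850 to 1389 CPM in Tet minus and 1112 to 1802 CPM in Tet plus libraries. TH stayed at or below 0.206 CPM in all libraries. Of 5 S phase markers 4 were lower, with sums of 935 to 1412 CPM in Tet minus and 663 to 1300 CPM in Tet plus, and of 5 mitosis markers 1 was lower, with sums of 458 to 2117 CPM and 365 to 1979 CPM. In Tet minus the mean mitosis sum peaked at 8 h (2027 CPM, against 1538 in Tet plus). In Tet plus it peaked at 10 h (1978 CPM, against 1864 in Tet minus). At 14 h the mean S phase sum was 1241 CPM in Tet minus and 697 CPM in Tet plus. The arms may thus differ in phase at the same hour, which was not tested. Epithelial markers summed to at most 2.09 CPM at 0 to 14 h, with 1 of 2 tested higher, and of 4 mesenchymal markers tested 1 was higher, with sums of 562 to 1076 CPM in Tet minus and 550 to 1175 CPM in Tet plus. The part of these marker differences in the values of the polymerase genes was not tested, and fewer cells in a phase cannot be told apart from less RNA per cell.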

How the data were processed

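Total RNA with ERCC spike-in mix 1 was depleted of ribosomal RNA and sequenced from directional libraries, per the labels' protocols. The deposited values are counts of reads per gene, made with TopHat2 2.0.5 and HTSeq on hg19, per the submitters' processing notes. The strand setting is not given in the sources used here. Of 23367 gene rows 3929 were 0 in every library, and the 92 ERCC rows were kept out of library sizes and tests.

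Counts were fitted with edgeR 4.0.16 in R 4.3.3 (TMM scaling, filterByExpr, quasi-likelihood test) as 22 means of arm and time over all 44 libraries, leaving 22 residual degrees of freedom, with Benjamini-Hochberg adjustment over 14534 genes. SE was taken as the size of the log2 change over the root of its F statistic. Effects were averaged over 0 to 14 h and, separately, over 16 to 22 h, and libraries of different times were taken as independent. DESeq2 1.42.0, other scalings and filters, a replicate block and leaving out each library were alternatives. The method was also run on simulated counts with known changes. Each simulated library was drawn independently, so the simulation could not test the effect of the pairing described next. Same-numbered libraries of the arms deviated together at each of the 11 times (lowest r 0.271 over 10176 genes), so the numbers pair the arms. No pair of replicates was a repeated library (chi-square per gene 8.90 or more).

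Genes named with full statistics were MYCN, the 4 smallest adjusted p in each role at 0 to 14 h, the largest subunits, POLR3G and POLR3GL, any gene called against the median of its role, and up to 3 genes of each other list. The members and lists were chosen with earlier results of these data known. Promoter windows came from RefSeq GRCh38.p14, a later build than that of the counts, and were matched by symbol. A single member is not reported here; it is part of the counts but is left out of the named genes and the figures.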

Additional observations from a re-analysis of the deposited data

Results flagged for a closer look

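For 11 genes the arm difference at 16 to 22 h differed from that at 0 to 14 h by edgeR's quasi-likelihood test of the difference itself. The size of the step, late minus early on the log2 scale, was -0.49 for POLR2F (adjusted p = 0.00172), -0.45 for POLR3K (0.000953), -0.43 for POLR3A (0.0215), -0.37 for POLR2G (0.00228), -0.36 for POLR2C (7.31e-05), -0.33 for POLR2H (0.00564), -0.32 for POLR3B (0.000543), -0.30 for CD3EAP (0.0274), -0.25 for BRF1 (0.0335) and -0.23 for POLR3E (0.0101). POLR2K alone moved up, by 0.34 (adjusted p = 0.0439). It was higher in Tet plus at 16 h (110 and 125 CPM against 63.4 and 61.3 CPM) and lower at 22 h (61.2 and 49.2 CPM against 71.9 and 93.2 CPM). The calls of POLR2K, BRF1 and CD3EAP were lost in 26, 13 and 8 of 44 fits that left out 1 library. Arm and batch (title form and lane numbers) cannot be told apart at 16 to 22 h, and so neither can period and batch.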

How the results depend on the processing

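Scaling to ERCC counts moved the median of all genes to 0.13 at 0 to 14 h and 4.40 at 16 to 22 h. At 0 to 14 h it left 0 of the 43 genes lower (27 otherwise) and 0 higher, 0 in each of polymerases I, II, III and the shared subunits, 4 of all genes lower and 44 higher, and 0 calls at single times. Values that turned positive were 0.022 for BDP1, 0.042 for POLR2A, 0.036 for POLR2B, 0.026 for POLR3C, 0.0040 for TAF1B and 0.027 for ZNRD1, and 39 of 43 genes lay below the median of all genes. At 16 to 22 h it gave 0 lower in every group, 43 higher, 0 of all genes lower and 14510 higher, 172 calls at single times and 43 calls late against early. Late values were then 3.04 for CD3EAP, 3.55 for POLR1B, 3.66 for POLR1E, 4.04 for POLR1A, 3.80 for POLR1C, 4.01 for UBTF, 3.48 for POLR3G, 3.18 for POLR3K, 3.83 for POLR3A, 3.85 for POLR3B, 3.75 for POLR3E, 3.83 for POLR2C, 3.57 for POLR2F, 4.06 for POLR2G, 3.71 for POLR2H, 4.18 for BRF1, 4.12 for BDP1 and 4.12 for MYCN. Late minus early values were 3.99 for BRF1, 3.95 for CD3EAP, 3.91 for POLR2C, 3.75 for POLR2F, 3.88 for POLR2G, 3.93 for POLR2H, 3.86 for POLR3A, 3.94 for POLR3B, 4.01 for POLR3E and 3.87 for POLR3K. Change over time was called for 0 genes in either arm. The cause was not tested.

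Counts summed over times, 2 libraries against 2, gave 0 genes lower and 0 higher at 0 to 14 h, among the 43, in each polymerase and among all genes (CD3EAP adjusted p = 0.159). At 16 to 22 h they gave 0 of the 43 higher, 2 polymerase II genes lower, and 2036 lower and 1358 higher of all genes. With the replicate block added, an alternative chosen after seeing the data, the summed counts gave 6 polymerase II genes lower at 0 to 14 h and 3 genes higher at 16 to 22 h. Over all genes this fit gave 4221 lower and 4371 higher at 0 to 14 h, and 4307 and 4214 at 16 to 22 h.

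Pairing by a replicate block gave 5 polymerase II genes lower at 0 to 14 h, 3 genes higher at 16 to 22 h, 87 calls at single times, 11 genes changed over time in Tet minus and 6 in Tet plus. A replicate block within each time gave 5, 2 and 106 for the first 3 of these and 18 calls late against early. Over all genes this block within each time gave 3930 lower and 4021 higher at 0 to 14 h, and 4540 and 4767 at 16 to 22 h. Its all-gene calls at single times and late against early were not counted. The block ended no call at 0 to 14 h among the genes named as lower. Over all genes the replicate block gave 3726 lower and 3856 higher at 0 to 14 h. At 16 to 22 h it gave 4439 and 4661. DESeq2, RLE scaling, a stricter filter (mean of at least 1 CPM) and a fit of only the compared libraries each gave 3 genes higher at 16 to 22 h. Of all genes, 3899, 4033, 3600 and 3933 were higher in these fits, in this order, the stricter filter leaving 12866 genes. Without a filter there were 28 calls at single times, 7 late against early, 0 from 0 to 6 h in Tet plus and 3 from 16 to 22 h in Tet plus, where ERCC scaling gave 0 for both and the block 4 for the first. The share of all genes was not counted for the calls without a filter.

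Leaving out each library in turn gave 23 to 28 genes lower at 0 to 14 h and 23 to 28 at 16 to 22 h, 1 to 3 higher at 16 to 22 h, and 3 to 5 polymerase II genes lower at 0 to 14 h and 2 to 5 at 16 to 22 h. Calls from 0 to 6 h in Tet plus ran from 0 to 1, and from 16 to 22 h from 0 to 3. POLR2J4 ran from -0.0075 to 0.11 and TAF1B from -0.090 to 0.055 at 0 to 14 h. With 2 libraries per arm and time, single times are the least precise of these results.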
